A study of Mus musculus with 21 samples.

Results

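The deep intronic sequence of mouse protein-coding genes was taken as every intronic base more than 500 nt from any annotated exon on the same strand, in GENCODE vM1 on the mm9 assembly. Exons of all annotated genes counted, small RNA genes included, so that an intron holding a small RNA was split there and its neighbourhood left out. The rule left 112868 of 198609 exon-free intervals inside protein-coding genes. These intervals held 779691831 deep bases, which were 84.0% of the 927702425 intronic bases, in 17405 of the 19423 genes with an intron. The median interval was 2838 nt long, with quartiles at 1674 and 6226 nt, and the longest was 892206 nt. A crosslink of at least 1 of the 8 libraries fell into the deep part of 67308 of them.

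Crosslinks came from iCLIP, in which RNA is fixed to bound protein by ultraviolet light, the protein is immunoprecipitated, and the end of the truncated cDNA marks the crosslinked nucleotide. The cells were md MEPA cells, an immortal line from the mandibular part of the pharyngeal arch of mouse embryos aged 11.5 days post coitum, whose conditional immortalising transgene is kept active at 33 °C with 100 U/ml of interferon. Of the libraries, 4 used an antibody against endogenous RBM10 and 4 used rabbit IgG, each IgG library being the control of the RBM10 replicate with its number. Cells of both groups were irradiated alike, with 400 mJ/cm2 at 254 nm. RBM10 libraries 1 to 4 totalled 1114788, 2847066, 2845634 and 774816 crosslinks; totals of 965090, 2214515, 103017 and 157986 were reached with IgG. Since all RBM10 libraries ran on 1 sequencing lane and all IgG libraries on a different one, the lane and the antibody cannot be told apart. The labels call the RBM10 experiments independent, but do not say whether the cultures were separate, so p-values measure the spread between libraries.

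RBM10 is an RNA-binding protein that regulates alternative splicing. An intron is defined for the spliceosome by its donor site, branch point, pyrimidine-rich tract and acceptor site, which lie close to the exons; the sequence in between makes up most of a long intron and holds repeats, strings that resemble splice sites, and unspliced sequence available to any RNA-binding protein while the transcript is nascent. An IgG library records RNA that is recovered without a specific antibody, and such material can include pre-mRNA. Ultraviolet light crosslinks uridine more readily than the other bases, so uridine is common in unspecific crosslinks.

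The sequences of 5 deep stretches of 200 nt are shown as examples. They are among 30 stretches called higher that were more crosslinked in every RBM10 library than in any IgG library. That of Camk1d is shown because it held the most crosslinks of all tested deep stretches, counted over both antibodies, with 2971 RBM10 and 4087 IgG crosslinks. Each is read 5′ to 3′ on the transcribed strand of mm9. Capitals mark the bases crosslinked in all 4 RBM10 libraries, and in Camk1d the bases crosslinked in at least 2 IgG libraries.
Tada2a, chr11:83901601-83901800, minus strand: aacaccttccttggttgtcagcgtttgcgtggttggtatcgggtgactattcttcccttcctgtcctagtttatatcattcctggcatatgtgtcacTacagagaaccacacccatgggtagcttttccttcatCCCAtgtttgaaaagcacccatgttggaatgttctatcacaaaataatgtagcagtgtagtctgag
Sf3b3, chr8:113353401-113353600, minus strand: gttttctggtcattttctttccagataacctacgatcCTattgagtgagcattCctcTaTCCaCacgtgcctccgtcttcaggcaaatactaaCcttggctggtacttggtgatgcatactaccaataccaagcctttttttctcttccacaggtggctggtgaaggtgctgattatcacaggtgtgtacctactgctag
G2e3, chr12:52455601-52455800, plus strand: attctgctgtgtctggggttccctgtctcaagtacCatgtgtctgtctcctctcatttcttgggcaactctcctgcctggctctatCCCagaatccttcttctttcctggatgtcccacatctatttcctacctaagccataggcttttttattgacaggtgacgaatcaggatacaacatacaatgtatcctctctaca
Syncrip, chr9:88368801-88369000, minus strand: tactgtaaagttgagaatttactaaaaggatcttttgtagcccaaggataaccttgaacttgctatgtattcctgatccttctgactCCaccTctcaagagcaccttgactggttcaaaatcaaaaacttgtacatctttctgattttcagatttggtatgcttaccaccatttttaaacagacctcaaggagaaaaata
Wls, chr3:159576001-159576200, plus strand: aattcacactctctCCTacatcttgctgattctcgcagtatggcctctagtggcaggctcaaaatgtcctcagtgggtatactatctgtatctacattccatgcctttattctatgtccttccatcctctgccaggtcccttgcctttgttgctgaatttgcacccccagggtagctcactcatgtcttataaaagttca
Camk1d, chr2:5300201-5300400, minus strand: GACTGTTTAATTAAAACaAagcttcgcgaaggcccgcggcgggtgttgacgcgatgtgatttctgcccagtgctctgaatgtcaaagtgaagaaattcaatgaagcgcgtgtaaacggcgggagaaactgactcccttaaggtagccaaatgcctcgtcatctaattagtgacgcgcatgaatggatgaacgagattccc
The capitals of the first 5 are mostly C, often beside another C. This describes the sequences shown and not all higher stretches. Among those named below but not shown, the stretches of Xpo1 and Mbtps1 had no base crosslinked in all 4 RBM10 libraries. Those of Camk1d follow another rule and cannot be set against them. Values of these stretches follow the account of the whole compartment.

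Deep intronic sequence took a smaller share of the crosslinks in RBM10 libraries than in IgG libraries. It received 25.0, 26.4, 18.8 and 16.9% of all crosslinks in RBM10 libraries 1 to 4, and 34.5, 36.1, 35.8 and 32.6% in IgG libraries 1 to 4. The 2 groups did not overlap. The means were 21.8% ± 4.63 with RBM10 and 34.8% ± 1.62 with IgG (SD, n = 4 each), a difference of -13.0 percentage points (exact permutation test over libraries, 2-sided p = 0.0286, adjusted p = 0.0357 over the 10 shares tested by Benjamini-Hochberg). That p is the smallest that 70 splits of 8 libraries allow. With the replicate numbers as a block every pair went the same way, but 4 pairs cannot give a sign-flip p below 0.125, and none of the 8 shares that passed the unpaired test passes the blocked one.

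**Figure D1:**
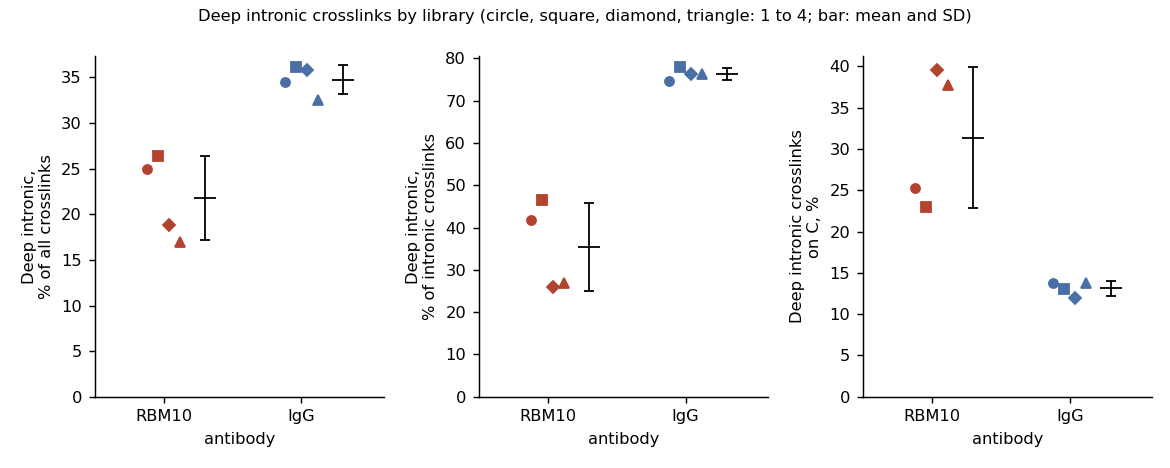
Each point is 1 library. From left to right the y axes give deep intronic crosslinks as a percentage of all crosslinks, the same as a percentage of intronic crosslinks, and the percentage of deep crosslinks that lie on C; black bars give mean and SD of 4 libraries. All 3 measures separate RBM10 from IgG, and RBM10 libraries 3 and 4 lie farther from IgG than libraries 1 and 2.

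Within introns the contrast was larger. Of the intronic crosslinks, 41.9, 46.6, 26.0 and 26.9% were deep in RBM10 libraries 1 to 4, and 74.5, 77.9, 76.2 and 76.3% in the IgG libraries, against 84.0% of the intronic bases. The means were 35.3% ± 10.4 and 76.2% ± 1.39 (SD, n = 4; exact permutation p = 0.0286, adjusted p = 0.0357). Scaled to 1000000 crosslinks per library, and per megabase, deep sequence held 279 ± 59.3 RBM10 crosslinks and 446 ± 20.8 IgG crosslinks. Intronic sequence within 500 nt of an exon held 2779 ± 713 and 732 ± 53.6 on the same scale. The density beside exons was thus 6.05 to 15.0 times the deep density in RBM10 libraries and 1.49 to 1.80 times in IgG libraries. The values are relative to each library's total, so that a library with more crosslinks beside exons has a lower deep share at an equal number of deep crosslinks, and absolute binding was not measured.

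As crosslink counts, the deep part was not small in RBM10 libraries. They held 278462, 752132, 534784 and 131136 deep crosslinks, the IgG libraries 332913, 800329, 36925 and 51466. IgG libraries 3 and 4 were thus the thinnest, and their values for single hosts and stretches have the largest counting error.

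The 2 antibodies differed in where the crosslink density changed with distance from the exon. At 50 to 100 nt from the nearest exon the RBM10 density was 10.4 times the IgG density, and at 400 to 500 nt, just outside the deep part, it was 812 ± 73.9 against 627 ± 19.8, or 1.29 times. Just inside, at 500 to 600 nt, it was 739 ± 49.5 against 645 ± 37.9, or 1.15 times, and the groups still did not overlap. From 600 to 1000 nt the groups overlapped in every class of 100 nt, with ratios from 1.11 down to 0.943. At 1000 to 1500 nt the RBM10 density was 454 ± 48.9 against 561 ± 34.8, a ratio of 0.810, and below every IgG library. The ratio fell further to 0.585 at 2 to 3 kb and 0.467 at 5 to 10 kb, and lay between 0.417 and 0.455 in the 4 classes beyond 10 kb. Of the deep RBM10 crosslinks 28.4% ± 6.01 lay within 1 kb of an exon, and of the IgG crosslinks 16.0% ± 0.381 (SD, n = 4; exact permutation p = 0.0286, adjusted p = 0.0357).

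**Figure D2:**
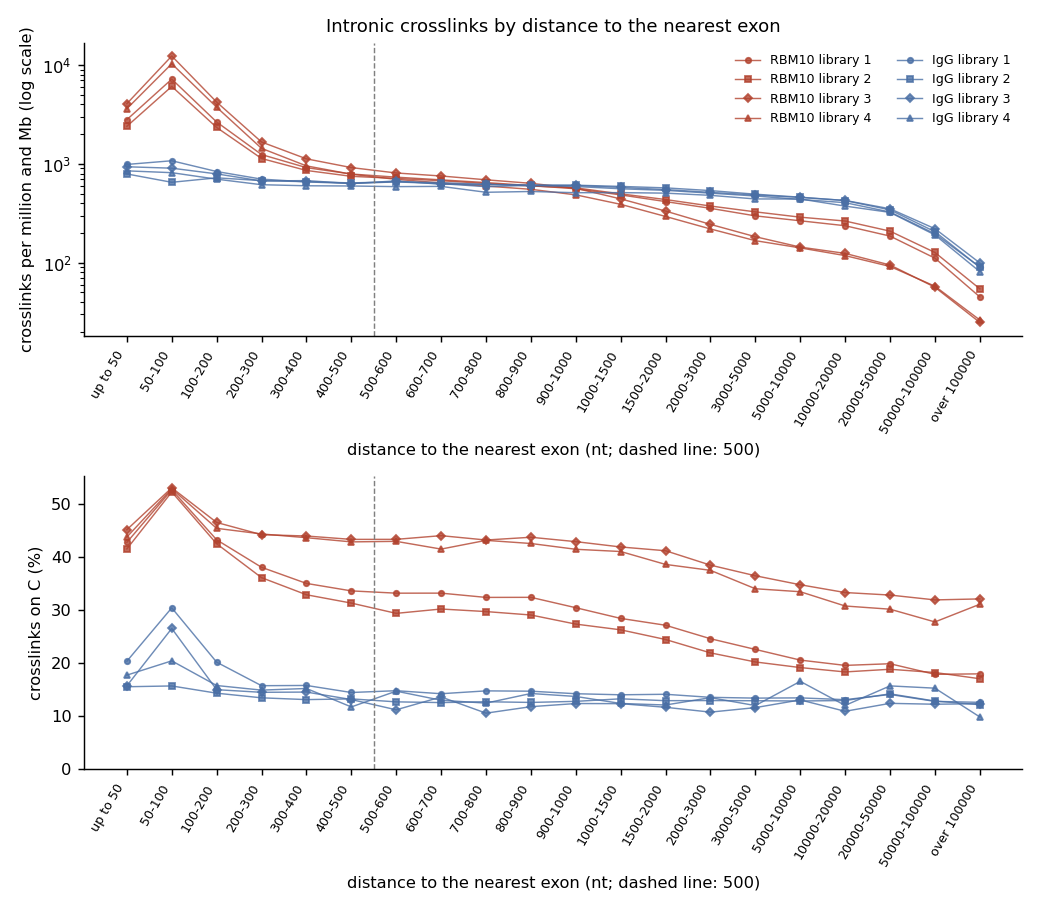
The upper panel gives intronic crosslinks per megabase, scaled to 1000000 crosslinks per library, on a log scale, by distance to the nearest exon in nt, and the lower panel the percentage of those crosslinks on C; each line is 1 library and the dashed line marks 500 nt. RBM10 lines fall from a peak at 50 to 100 nt and cross the flatter IgG lines near 900 nt, and in every distance class the RBM10 libraries have more crosslinks on C than the IgG libraries.

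The same profile was also taken over the more expressed hosts, those whose mean over the 3 WT md RNA-seq samples reached 20 TPM. There the IgG density was 1633 ± 100 at 500 to 600 nt, between 1413 and 1620 in the classes up to 20 kb, and 1609 ± 74.9 at 20 to 50 kb. RBM10 density was 1950 ± 163 at 500 to 600 nt and 653 ± 270 at 20 to 50 kb. Farther out both were lower, at 880 ± 32.9 with IgG and 401 ± 157 with RBM10 at 50 to 100 kb, and 348 ± 51.3 and 153 ± 52.3 beyond 100 kb. In introns longer than 20 kb the crossing lay nearer the exon, since the ratio was already 0.929 at 300 to 400 nt and 0.808 at 400 to 500 nt. The distance at which RBM10 and IgG meet is therefore not one number for all introns. These profiles were chosen after the first one had been seen.

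Deep crosslinks followed intron length. In intervals of 1 to 2 kb the deep density was 964 ± 93.4 with RBM10 and 705 ± 39.2 with IgG, a ratio of 1.37, and every RBM10 library lay above every IgG library. At 2 to 5 kb the values were 619 ± 37.9 and 620 ± 38.0, and the groups overlapped. At 5 to 10 kb the ratio was 0.693, at 10 to 20 kb 0.550, at 20 to 50 kb 0.486, and over 100 kb 96.7 ± 39.3 against 221 ± 12.8, or 0.438. In these longer classes every RBM10 library lay below every IgG library. Introns over 20 kb took 39.6, 41.4, 28.8 and 30.7% of the deep crosslinks in RBM10 libraries 1 to 4 and 48.1, 48.3, 49.5 and 49.4% in IgG libraries (means 35.1% ± 6.31 and 48.8% ± 0.721, n = 4; exact permutation p = 0.0286, adjusted p = 0.0357).

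Host gene length gave the same order with a smaller spread. In hosts of up to 10 kb the deep densities were 497 ± 30.4 and 533 ± 38.6 and overlapped. The ratio was 0.825 at 10 to 30 kb, 0.687 at 30 to 100 kb, 0.565 at 100 to 300 kb and 0.475 over 300 kb, where the densities were 98.1 ± 33.3 and 206 ± 8.45. Among hosts with at least 20 TPM the 5 ratios were 0.982, 0.844, 0.691, 0.569 and 0.487. Hosts over 100 kb took 44.4% ± 3.87 of the deep crosslinks with RBM10 and 52.5% ± 0.221 with IgG (SD, n = 4; exact permutation p = 0.0286, adjusted p = 0.0357).

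**Figure D3:**
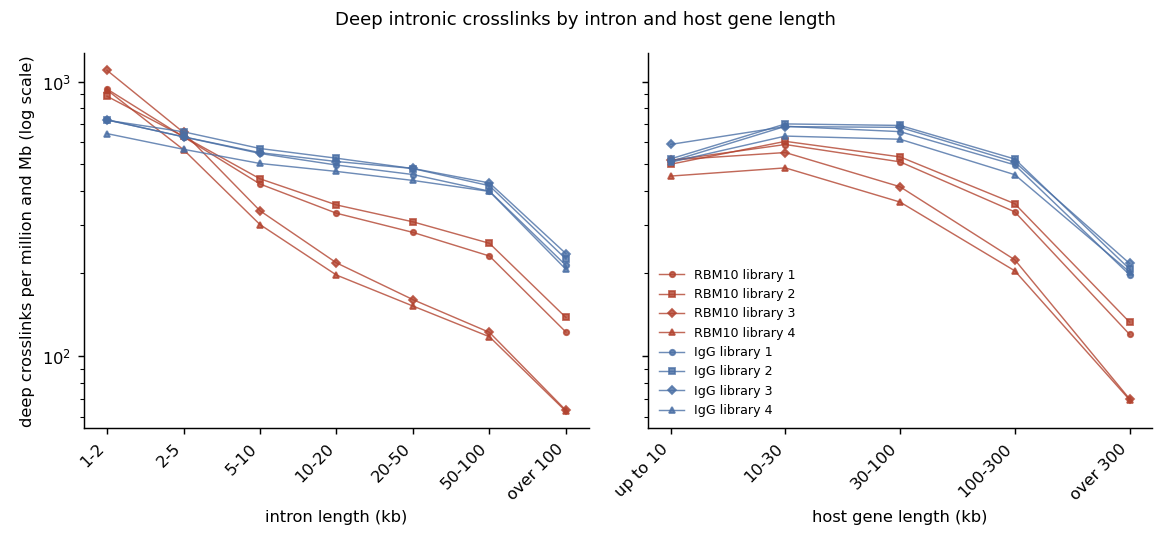
Both panels give deep intronic crosslinks per megabase, scaled to 1000000 crosslinks per library, on a log scale, on the left by the length of the exon-free interval and on the right by the length of the host gene, in kb; each line is 1 library. RBM10 libraries lie above IgG in intervals of 1 to 2 kb and below it in every class from 5 kb on.

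Along the deep part of an interval, divided into 5 equal parts numbered from 5′ to 3′, part 1 held 24.6% ± 0.130 of the IgG crosslinks and part 5 held 15.8% ± 0.198. Of the RBM10 crosslinks part 1 held 23.8% ± 0.344, part 4 held 17.8% ± 0.0594 and part 5 held 19.9% ± 2.02. Part 5 held 18.5, 17.8, 21.8 and 21.5% of the deep crosslinks in RBM10 libraries 1 to 4, all above the IgG libraries, whose highest value was 15.9%. In introns over 20 kb part 5 held 15.2% ± 1.22 with RBM10 and 13.1% ± 0.0953 with IgG, again without overlap. First introns of genes had 1.18 ± 0.0199 times the mean deep density in IgG libraries and 0.961 ± 0.0942 times in RBM10 libraries. Host expression went with the deep density under both antibodies: hosts of more than 80 TPM had 5.26 ± 0.439 times the mean deep density with RBM10 and 4.66 ± 0.124 times with IgG, and hosts of at most 1 TPM, which held 54.0% of the deep bases, had 0.0542 ± 0.00620 and 0.0638 ± 0.00843 times.

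The base under the crosslink also differed. C carried 25.3, 22.9, 39.5 and 37.8% of the deep crosslinks in RBM10 libraries 1 to 4, and 13.8, 13.1, 11.9 and 13.7% in IgG libraries, against 20.8% of the deep bases. Every RBM10 library thus lay above the base composition and every IgG library below it, and RBM10 libraries 3 and 4 stood above libraries 1 and 2. The means were 31.4% ± 8.49 and 13.1% ± 0.867 (SD, n = 4; exact permutation p = 0.0286, adjusted p = 0.0357). U carried 45.2% ± 6.92 with RBM10 and 58.4% ± 1.03 with IgG (exact permutation p = 0.0286, adjusted p = 0.0357), against 30.2% of the deep bases. A and G carried 8.91% ± 1.15 and 14.5% ± 0.564 with RBM10 and 11.2% ± 0.258 and 17.3% ± 0.816 with IgG.

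The share on C was lower far from exons than near them in RBM10 libraries, while the IgG means lay between 11.8 and 14.1% in all deep classes of distance. It was 37.2% ± 7.01 at 500 to 600 nt and 24.6% ± 8.14 beyond 100 kb with RBM10, and 13.4% ± 1.73 and 11.8% ± 1.27 with IgG. Even beyond 100 kb the lowest RBM10 library, at 17.1%, lay above the highest IgG library, at 12.6%. By interval length the RBM10 share on C was 38.7% ± 6.35 at 1 to 2 kb and 24.3% ± 6.92 over 100 kb.

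Positions hit repeatedly carried C most often. Of the 1394915 deep positions with an RBM10 crosslink, 1360569 were seen in 1 library, 30148 in 2, 3415 in 3 and 783 in all 4. C made up 27.2, 50.8, 72.2 and 75.0% of these classes. Of the last class 50.2% lay within 1 kb of an exon, against 25.5% of the positions seen in 1 library, and the 783 positions lay in 466 host genes. In IgG libraries 89 of 940696 deep positions were seen in all 4, and C made up 27.0% of them. Of those 89 positions, 78 lay in the few stretches of 200 nt tested below, as did 215 of the 783 RBM10 positions. Shared positions were far more frequent outside the deep part, where 15202 of 1843645 RBM10 positions were seen in all 4 libraries.

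Strings of 5 bases within 25 nt of deep crosslinks were counted without those that include the crosslinked base itself. The largest excess with RBM10 over IgG was that of CCUCC, at 0.253% ± 0.0276 of the strings against 0.179% ± 0.00831, a log2 ratio of 0.50. The next were CCCUC with a log2 ratio of 0.45 and UCCUC with 0.44, again strings made of C and U alone. The largest deficit of the means was that of UUUUU, at 0.513% ± 0.0499 against 0.917% ± 0.338, a log2 ratio of -0.84. IgG libraries 1 to 4 had 0.612, 0.643, 1.14 and 1.27%, so that the IgG mean was raised by libraries 3 and 4, the thinnest. RBM10 libraries 1 to 4 had 0.485, 0.513, 0.470 and 0.583%. Rare strings with CG followed, among them CGCGA at -0.83, CGCCG at -0.80 and UCGCG at -0.67, which had -0.53, -0.35 and -0.13 when each position was counted once. GUGUG had a log2 ratio of -0.43. Of the 1024 strings 249 were higher (24.3%) and 174 lower (17%) in every RBM10 library than in every IgG library. Overlapping strings share bases and crosslinks, so these counts are a description.

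Of the strings that resemble splice sites, those like acceptors were slightly more frequent beside deep RBM10 crosslinks than beside IgG crosslinks, and those like donors were not. An acceptor-like string (3 pyrimidines, any base and CAG) stood in the 60 nt downstream of 22.4% ± 0.889 of the RBM10 crosslinks and 19.9% ± 0.304 of the IgG crosslinks (SD, n = 4; exact permutation p = 0.0286, adjusted p = 0.0357), against 18.7% of all deep bases. It also stood in the 60 nt upstream of 21.4% ± 0.728 and 19.5% ± 0.273. A donor-like string (GUAAG or GUGAG) stood in the 60 nt upstream of 11.6% ± 0.191 and 11.8% ± 0.114, groups that overlapped (exact permutation p = 0.0857, adjusted p = 0.0952). Downstream it stood within 60 nt of 10.6% ± 0.707 and 11.5% ± 0.244, again with overlap. Within 500 nt of an exon the acceptor-like string stood downstream of 27.8% ± 0.519 of the RBM10 crosslinks and 21.8% ± 0.869 of the IgG crosslinks. The motif is rich in pyrimidines, as are the deep crosslinks under both antibodies. C and U carried 31.4 and 45.2% of them with RBM10 and 13.1 and 58.4% with IgG. The part of base composition in the acceptor-like difference was not tested.

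Crosslinks were then summed per host gene and compared by edgeR's quasi-likelihood test over 16348 gene parts (deep, other intronic and exonic), with p-values adjusted over all of them by the Benjamini-Hochberg method. Of the 17405 hosts 12567 had a deep crosslink and 4969 passed the filter on low counts, which keeps well-crosslinked hosts. Deep crosslinks were higher with RBM10 in 26 of them (0.523%) and lower in 1933 (38.9%), with a median log2 fold change of -0.74. The other intronic part of genes was higher in 5280 of 6243 (84.6%) and lower in 35 (0.561%), with a median of 1.75. Both parts were tested in 4115 hosts, and the deep part had the lower log2 fold change in 4103 of them. In 1124 hosts the deep part was lower while the other intronic part of the same gene was higher.

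The size of the deep difference and the number of calls depended on the scaling. The median log2 fold change of the deep part was -0.74 with TMM, -0.58 with totals alone and -0.34 by DESeq2. The median over all 16348 gene parts was -0.04 when libraries were scaled by TMM, 0.13 when only their totals were used and 0.42 by DESeq2. Relative to that median, the deep part had a median of -0.70, -0.71 and -0.77. With TMM, the RBM10 and IgG libraries did not overlap in 60 higher hosts (1.21%) and 1318 lower hosts (26.5%), counted with or without a call. That count was not made over all gene parts, so these 2 shares have no background here. By call, which is another criterion, 35.4% of all gene parts were higher and 22.9% lower, against 0.523 and 38.9% of the deep hosts. Without TMM factors 46 hosts were higher and 1317 lower, and with DESeq2 74 and 645. Leaving out RBM10 library 4 reduced the lower hosts to 561, and leaving out RBM10 library 3, IgG library 1 or IgG library 2 to 1251, 1198 and 1085.

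The share of hosts called lower went with length. Among hosts whose longest interval was 2 to 5 kb, 27 of 550 were lower (4.91%) and 16 higher, with a median log2 fold change of -0.07. Where the longest was 20 to 50 kb, 770 of 1291 were lower (59.6%) and 2 higher, and over 100 kb 189 of 206 were lower (91.7%) and none higher, with a median of -1.22. By host length, 195 of 1184 hosts of 10 to 30 kb were lower (16.5%), and 186 of 217 hosts over 300 kb (85.7%). The medians, which do not depend on the threshold, had the same order.

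**Figure D4:**
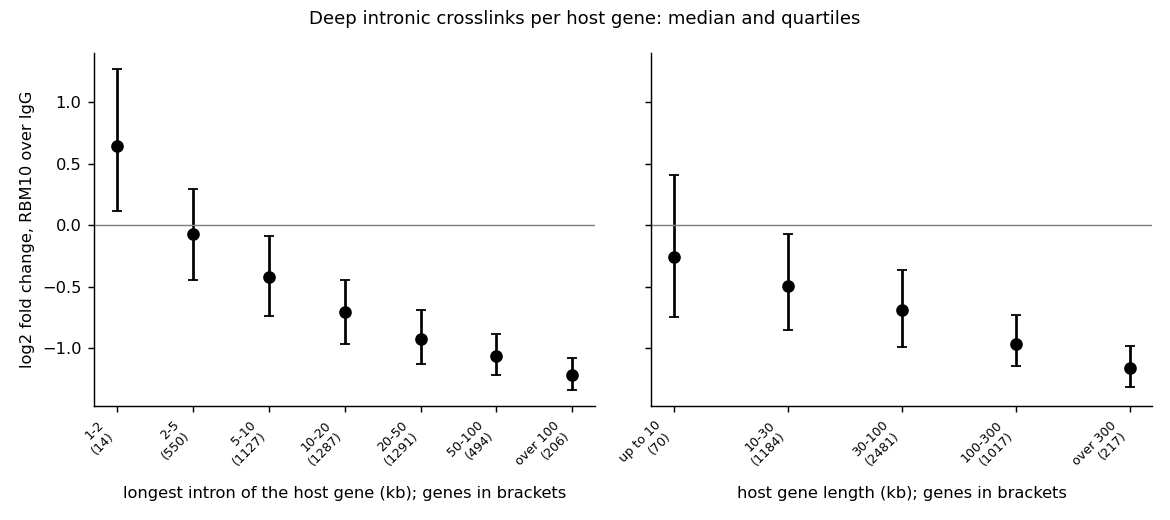
Points give the median log2 fold change (RBM10 over IgG) of deep intronic crosslinks per host gene, with bars from the first to the third quartile, on the left by the longest exon-free interval and on the right by host gene length, in kb, with the number of genes in brackets. The median falls from 0.64 at 1 to 2 kb to -1.22 over 100 kb.

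The most deep crosslinks of all hosts lay in Cdh13, Asap1, Large, Rbfox2 and Camk1d, genes of 228064 to 1041189 bases. Cdh13 encodes a cadherin without a transmembrane domain, and its deep part held 1011, 3012, 989 and 261 crosslinks in RBM10 libraries 1 to 4 and 1650, 3816, 149 and 196 in IgG libraries, a log2 fold change of -1.34 ± 0.37 (SE; edgeR adjusted p = 0.00324). Asap1, which encodes an Arf GTPase-activating protein, had -1.07 ± 0.34 (edgeR adjusted p = 0.00814). Large, a glycosyltransferase that modifies dystroglycan, had -1.26 ± 0.34 (edgeR adjusted p = 0.00245). Rbfox2, a splicing regulator, held 862, 2338, 1531 and 328 RBM10 crosslinks and 1122, 2659, 107 and 164 IgG crosslinks and had -0.93 ± 0.33 (edgeR adjusted p = 0.0156). That call was lost without RBM10 library 4 (-0.59), IgG library 1 (-0.88) or IgG library 2 (-0.89), and with at least 10 crosslinks in place of the filter (-0.71). In normalised CPM the 2 groups overlapped in none of these 5 hosts. The other intronic part had a log2 fold change of 1.83 in Asap1, 1.13 in Large and 1.59 in Rbfox2. It was not called in Cdh13 (-0.32, edgeR adjusted p = 0.527) or Camk1d (0.17, edgeR adjusted p = 0.783).

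Among the hosts called lower, the 5 with the lowest p were Suclg2, Zfp710, Ppp1r9a, Lrrc4c and Vkorc1l1. Suclg2, which encodes a subunit of the GTP-forming succinyl-CoA ligase, held 249, 707, 203 and 113 deep crosslinks with RBM10 and 443, 1129, 101 and 105 with IgG (log2 fold change -1.99 ± 0.36, edgeR adjusted p = 3.92e-05). A single stretch of 200 nt held 62.3% of its IgG crosslinks and 42.5% of its RBM10 crosslinks. Ppp1r9a, encoding the actin-binding protein neurabin, was listed at 0 TPM in all 3 WT samples, and 95.7% of its IgG crosslinks fell into 1 stretch, 25.1% of whose runs of 30 bases occur elsewhere in the genome. In Zfp710, a zinc finger gene, the fullest stretch held 1.39% of the IgG crosslinks. Its deep counts were 38, 168, 68 and 19 with RBM10 and 118, 208, 14 and 20 with IgG (log2 fold change -1.82 ± 0.34, edgeR adjusted p = 6.78e-05). Lrrc4c, encoding a netrin-G ligand, and Vkorc1l1, a relative of the vitamin K epoxide reductase gene, had -2.01 ± 0.38 and -1.72 ± 0.33.

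None of the 26 hosts called higher was longer than 100 kb. Of those, 10 are described, the rule being the lowest p among hosts whose RBM10 and IgG libraries do not overlap and that reach 20 CPM. Cct6a, a subunit of the cytosolic chaperonin, held 22, 61, 86 and 25 deep crosslinks with RBM10 and 3, 7, 1 and 0 with IgG (log2 fold change 2.78 ± 0.56, edgeR adjusted p = 0.000155). All of its deep crosslinks lay within 1 kb of an exon. E2f4, a transcription factor that represses cell cycle genes, held 34, 72, 121 and 41 against 7, 16, 0 and 0 (2.37 ± 0.50, edgeR adjusted p = 0.000249). Within 1 kb of an exon lay 65.3% of its RBM10 and 56.5% of its IgG crosslinks.

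Tada2a, a subunit of histone acetyltransferase complexes, held 196, 434, 592 and 98 deep crosslinks with RBM10 and 57, 127, 4 and 4 with IgG (log2 fold change 1.55 ± 0.33, edgeR adjusted p = 0.000269). It was not called with each position counted once (0.24, edgeR adjusted p = 0.458) or at 1000 nt from exons (0.29, edgeR adjusted p = 0.510). Sf3b3, a subunit of the SF3b complex of the U2 snRNP, held 191, 404, 901 and 163 against 73, 133, 7 and 11 (1.46 ± 0.33, edgeR adjusted p = 0.000451), and was not called with each position counted once (0.27, edgeR adjusted p = 0.399). Of its RBM10 crosslinks 19.3% lay within 1 kb of an exon, against 55.4% of its IgG crosslinks. G2e3, a ubiquitin ligase named for its expression in G2 and M phase, held 59, 93, 222 and 47 against 18, 42, 1 and 1 (1.55 ± 0.40, edgeR adjusted p = 0.00171). The stretches printed above held 63.8, 72.2 and 57.0% of the deep RBM10 crosslinks of Tada2a, Sf3b3 and G2e3, and 4.17, 7.14 and 3.23% of their deep IgG crosslinks.

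The other 5 were Ube2q1 (a ubiquitin-conjugating enzyme), Cpsf4 (a subunit of the cleavage and polyadenylation specificity factor), Srrt (which links the cap-binding complex to RNA processing), Habp4 (an RNA-binding protein) and Tap2 (a transporter of antigenic peptides), with log2 fold changes from 1.29 to 1.91. Within 1 kb of an exon lay 92.5% of the deep RBM10 and 95.5% of the deep IgG crosslinks of Ube2q1, and 81.6 and 90.0% of those of Cpsf4. In Srrt the shares were 91.0 and 68.3%, in Habp4 77.9 and 31.4%, and in Tap2 93.7 and 72.1%. Without IgG library 2 the calls of Cpsf4 (1.57, edgeR adjusted p = 0.0545) and Tap2 (1.40, edgeR adjusted p = 0.0535) were lost. With 1000 nt in place of 500 nt as the distance from exons, 8 hosts were higher.

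The 8 gene lists, chosen for splicing and for the biology of these cells, had shares of lower hosts on both sides of the background. Lower with RBM10 were 13 of 33 tested splicing regulators, 6 of 14 collagen and matrix genes, 23 of 32 actin cytoskeleton and adhesion genes, 26 of 29 genes of TGF-beta, BMP and Wnt signalling, 19 of 25 chromatin regulators, 3 of 19 Fanconi and DNA repair genes, 3 of 25 cell cycle genes and 1 of 12 interferon response genes, against 38.9% of all hosts. Higher was 1 gene, Tap2 of the interferon list, with the cells grown in interferon under both antibodies. The median log2 fold changes were -0.67, -0.48, -0.85, -1.14, -0.97, -0.24, -0.18 and -0.02 in that order. Among all hosts the share called lower rose from 4.91 to 91.7% between the classes of longest interval given above. The lists were not matched to all hosts by length, and the part of length in their shares and medians was not tested. In the other intronic part, 84.6% of all hosts were higher and 0.561% lower. Higher there were 33 of 40 splicing regulators, 24 of 24 Fanconi and DNA repair genes and 18 of 27 genes of TGF-beta, BMP and Wnt signalling. No member of any list was lower, which was likely given that background.

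The members named were taken from those with the lowest p in each list. In Tgfbr2, a receptor of TGF-beta, the deep part held 105, 265, 129 and 33 crosslinks with RBM10 and 125, 294, 21 and 31 with IgG (log2 fold change -1.32 ± 0.33, edgeR adjusted p = 0.00136), and the other intronic part had 1.73. In the splicing regulators Celf1 and Hnrnpr the deep part had -1.19 ± 0.32 and -1.31 ± 0.36 and the other intronic part 1.48 and 1.37. In the deep part of Celf1 the RBM10 and IgG libraries overlapped. Col4a2, a chain of basement membrane collagen, had -1.24 ± 0.35 in the deep part and 2.94 in the other. Values of these genes in the 2 parts had opposite signs. They were picked among deep parts called lower, and 84.6% of all other intronic parts were higher, so this was likely beforehand. Some other members picked by the same rule had an other intronic part that was not called, with log2 fold changes from 0.20 to 0.89.

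At the finest scale, 82 deep stretches (bins of 200 nt) passed the filter among 4742 bins tested, and they held 1.31% of the deep RBM10 crosslinks and 1.41% of the deep IgG crosslinks. A bin passed through the group in which it was well crosslinked, so the numbers called say nothing of deep bins at large. Higher with RBM10 were 36 bins (43.9%) in 32 hosts and lower 25 (30.5%) in 23 hosts, against 54.4 and 23.9% of all bins (edgeR, adjusted over all bins). The median over all tested bins was 1.72 with TMM factors, 2.53 without and 3.69 with DESeq2; deep bins called higher and lower numbered 40 and 17 without TMM factors and 44 and 2 with DESeq2. Leaving out RBM10 library 3 reduced the lower bins to 7 and leaving out IgG library 2 to 15, whereas leaving out IgG library 3 or 4 raised them to 42 and 45.

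**Figure D5:**
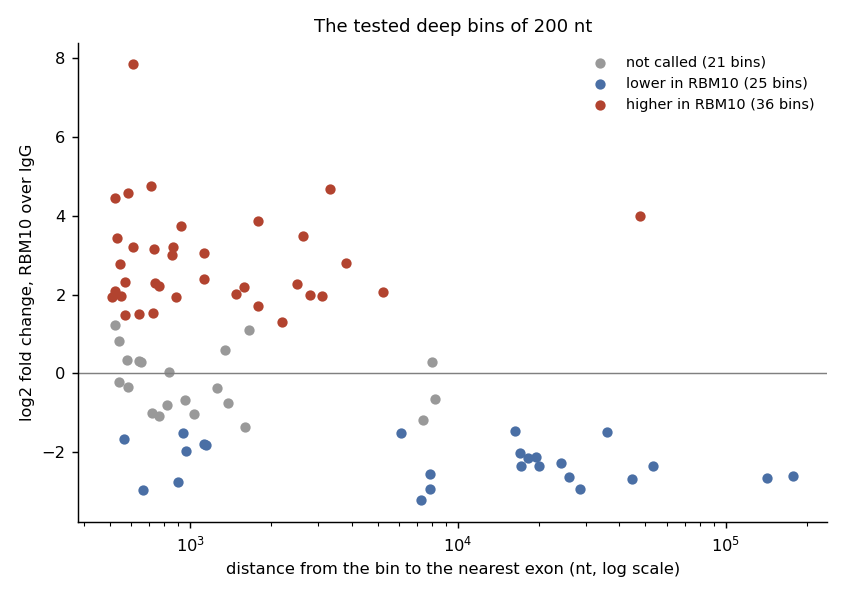
Each point is 1 of the 82 tested deep bins of 200 nt, by its distance to the nearest exon in nt on a log scale and its log2 fold change, RBM10 over IgG. Bins called higher lie mostly below 5 kb, and 1 of the 36 lies beyond 10 kb, against 14 of the 25 bins called lower and 0 of the 21 bins not called.

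Higher bins had a median distance of 860.5 nt from the nearest exon and lay in intervals with a median of 3134 nt, and 21 of the 36 lay within 1 kb. The 21 tested bins not called were alike in this, with medians of 836 and 2955 nt and 12 within 1 kb. The most crosslinked position of higher bins was a C in 32 and a U in 4, and held a median 19.6% of the RBM10 crosslinks of the bin. In bins not called it was a C in 10 and a U in 10. RBM10 crosslinks were spread over a median of 50 positions in higher bins and 46 in bins not called. Lower bins had a median distance of 17028 nt, and a single position held a median 52.4% of their RBM10 crosslinks. An acceptor-like string lay in 28 of the 36 higher and 13 of the 25 lower bins, against 48.0% of 75842 evenly spaced deep windows of 200 nt, and a donor-like string in 15 and 7, against 31.6%. The gene lists held few of the hosts, among them the following: of splicing regulators Rbm25 and U2af1 had a higher bin, of the interferon list B2m, of the cell cycle list Kif15, and of the actin and adhesion list Vcl.

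The bin of Tada2a, 587 nt upstream of an exon in an interval of 3036 nt, held 130, 248, 407 and 57 crosslinks in RBM10 libraries and 5, 3, 0 and 0 in IgG libraries (log2 fold change 4.57 ± 0.86, edgeR adjusted p = 0.000108). A single position, the 136th base of the sequence printed above and a C, took 47.6% of the RBM10 crosslinks of the bin.

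In Sf3b3 the bin lay 1784 nt downstream of one exon and 3255 nt upstream of the next, and held 109, 255, 721 and 113 crosslinks against 12, 3, 0 and 1 (3.86 ± 0.83, edgeR adjusted p = 0.000359). Of its RBM10 crosslinks 58.0% fell on the 61st base, a C. The 3 acceptor-like strings in this sequence start at bases 18, 76 and 147.

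The G2e3 bin held 28, 48, 129 and 35 crosslinks against 1, 1, 0 and 0 (4.76 ± 0.87, edgeR adjusted p = 8.82e-05), spread so that the highest position took 9.17%. Its sequence had no acceptor-like string.

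The Syncrip bin held 32, 85, 93 and 23 crosslinks against 2, 3, 0 and 0 (3.50 ± 0.74, edgeR adjusted p = 0.000297). Syncrip encodes the RNA-binding protein hnRNP Q, and the bin lay 2627 nt downstream of one exon and 9180 nt upstream of the next. The Wls bin, in the gene of the carrier that brings Wnt proteins to the cell surface, held 20, 54, 96 and 27 against 1, 1, 0 and 0 (4.45 ± 0.81, edgeR adjusted p = 8.24e-05) and lay 525 nt upstream of an exon.

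Of the other bins named, that of Fam13b held 22, 56, 95 and 19 crosslinks and none in any IgG library. By library totals alone, without TMM factors, its pooled RBM10 level was 25.3 CPM. On that scale it was at least 29.0-fold higher than the 0.872 CPM that 3 counts over the IgG group would give. In TMM-scaled CPM the bin had 20.3 ± 2.63 (SD) with RBM10, and no such bound was computed. The median log2 fold change over all tested bins was 1.72 with TMM factors and 2.53 without, so the bound depends on the scaling. Xpo1, the nuclear export receptor, had a bin with 13, 40, 56 and 12 crosslinks against 0, 3, 0 and 0 (3.21 ± 0.63). Mbtps1, the site-1 protease gene, had 15, 29, 45 and 24 against 1, 0, 0 and 1 (3.73 ± 0.80). The bin of Ecd held 12, 28, 63 and 11 against 2, 1, 0 and 0 (3.05 ± 0.64; 2.03 and not called without IgG library 2), although it was purine-rich, with 12.0% C and 9.00% U. In it 53.5% of the RBM10 crosslinks fell on a single C.

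The fullest deep bins had another character. The Camk1d bin printed above, 17028 nt from the nearest exon, held 715, 1862, 287 and 107 crosslinks in RBM10 libraries and 1167, 2649, 117 and 154 in IgG libraries. These were 75.4% of the deep RBM10 and 80.3% of the deep IgG crosslinks of Camk1d, a calcium-dependent kinase gene, whose log2 fold change of -1.60 ± 0.41 therefore mainly describes 1 stretch of 200 nt. The bin itself had -2.02 ± 0.79 (edgeR adjusted p = 0.0236). It was not called by DESeq2, where it had -0.86 (adjusted p = 0.195), nor by edgeR without RBM10 library 3, where it had -0.87, RBM10 library 4 (-1.56), IgG library 1 (-2.26) or IgG library 2 (-2.12), nor with at least 10 crosslinks in place of the filter (-1.14). Its letters resemble, as background, the large ribosomal RNA, an RNA abundant in every cell, with which they were not compared here. In the genome 55.0% of its runs of 30 bases occur at another place.

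Another bin with many crosslinks under both antibodies lay in 2610528E23Rik, a gene named after its values were seen. It held 508, 1501, 505 and 204 RBM10 crosslinks and 1146, 2719, 129 and 264 IgG crosslinks (-2.34 ± 0.73). Of the 25 lower bins 12, of the 36 higher bins 5, and of the 21 bins not called 4 had a run of 30 bases that occurs elsewhere. The median share of such runs was 0% in each class. They made up most of the runs in 2 lower bins and 1 higher bin. Only a read that lies wholly within a shared stretch cannot be assigned to a place by sequence. The part of this in the lower bins was not tested. Without the 82 tested bins the difference in the deep share of all crosslinks was -12.8 percentage points and that in the share on C 18.5, an alternative chosen after seeing the data.

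Other bins called lower lay in Camk1d (200 nt upstream of the bin above), Pkm2 and Csf1. That of Pkm2, the muscle pyruvate kinase gene, held 11, 16, 12 and 6 crosslinks against 12, 33, 0 and 3 (-1.79 ± 0.51, edgeR adjusted p = 0.00343), and that of Csf1, a growth factor of macrophages, 5, 28, 14 and 0 against 12, 29, 2 and 0. Groups overlapped in both. The Pkm2 bin turned direction by DESeq2 (0.093, adjusted p = 0.929) and was not called without TMM factors (-1.03), without RBM10 library 3 (-0.38) or with at least 10 crosslinks (-0.78). The Csf1 bin was not called by DESeq2 (-0.17), without TMM factors (-1.08), with at least 10 crosslinks (-0.82), or without RBM10 library 3 (-0.74) or 4 (-1.35). That of Camk1d was not called by DESeq2 (-1.16), with at least 10 crosslinks (-1.29) or without RBM10 library 3 (-1.08). Csf1 also had a bin called higher, with 33, 73, 150 and 28 crosslinks against 3, 19, 0 and 0 (1.97 ± 0.70, edgeR adjusted p = 0.0144).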

How the data were processed

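Crosslinked nucleotides were measured by iCLIP in 8 libraries of md MEPA cells. Per library, the authors deposited counts of crosslinks by strand and nucleotide; the series' design text names mm9 as the mapped genome. The authors deposited TPM per transcript for RNA-seq of the same cells, and the 3 WT columns were summed per gene to describe host expression. The sources used here do not give the aligner, the quantifier or any collapsing of molecular barcodes. TPM keep no depth. The submitters' processing notes list the builds mm9 and mm10. No column of another series was present (0 columns).

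Groups and replicate numbers come from the sample titles. Positions were placed on GENCODE vM1 by strand; the strand column holds the transcribed strand, and starts were shifted from 0-based to 1-based. Densities are crosslinks per megabase, scaled to 1000000 crosslinks of the library. Shares were compared by exact permutation over libraries, 2-sided. Crosslinks per gene part and per bin of 200 nt were compared with edgeR 4.0.16 (R 4.3.3; filterByExpr, TMM, quasi-likelihood test, threshold 0.05), with DESeq2 1.42.0 as an alternative; Python 3.11.15 was used for the rest. Log2 fold changes carry edgeR's SE. CPM values use TMM-scaled library sizes, except the pooled levels of the Fam13b bin, which use library totals alone. On simulated data with 200 rows changed 4-fold, equally many raised and lowered, 163 were recovered among 16348 gene parts and 61 among 4742 bins. In the data themselves a far larger share of rows was called, unequally in the 2 directions, so this recovery may not carry over to them.

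The members, gene lists and tests were chosen with earlier results of these data known. Named hosts have the lowest p among those called without overlap and with at least 20 CPM, or the most crosslinks, or are among the 3 lowest p of a list and direction. Named bins have the lowest p with at least 5 crosslinked positions (in every RBM10 library and without overlap if higher, in IgG libraries 1 and 2 if lower) or the most RBM10 crosslinks; genes with clone names were left out. A few genes the rule names are not reported here. Replicate numbers pair libraries by the design text, which gives each replicate its own control; the deviations of same-numbered libraries from their group means correlated at -0.06, -0.02, -0.02 and -0.01 over gene parts. Alternatives were the replicate block, each position counted once, 300 or 1000 nt from exons, exons of either strand, replicates 1 and 2 alone, no TMM, DESeq2, at least 10 crosslinks in place of the filter, bins of 500 nt, and leaving out each library. Nothing in the files gives molecules rather than reads, so counting errors are lower bounds.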

Additional observations from a re-analysis of the deposited data

Results flagged for a closer look

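In groups of 4 libraries, 1 value stood apart from the other 3 by Dixon's gap test in 6 of 134 groups tested, and chance flags about 1 in 20. The share of deep crosslinks at repeated positions, at equal depth, was 21.9% in RBM10 library 4 against 2.31 to 3.50% in the other RBM10 libraries; the IgG libraries had 2.63, 4.10, 40.9 and 66.5%, and the groups overlapped (7.54% ± 9.57 against 28.5% ± 30.9, n = 4, exact permutation p = 0.2). In IgG library 3 the deep part of Top2a, a topoisomerase, had 92.1 CPM against 31.4 to 37.3 in the other IgG libraries, and that of Ehmt1, a histone methyltransferase, 258 against 219 to 224. The deep part of Zfp710 had 104 CPM in IgG library 2 against 129 to 133. The Xpo1 bin had 2.32 CPM in IgG library 2 and 0 in the others. The Fam13b bin had 24.2 CPM in RBM10 library 3 against 18.5 to 19.4.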

How the results depend on the processing

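The 8 shares that passed the test kept their direction under every alternative run and passed it with each position counted once, with 300 or 1000 nt, with exons of either strand and without the tested bins (the share within 1 kb was not defined at 1000 nt). They lost it under the replicate block (differences of -13.0, -40.9, 18.3, -13.3, -13.7, -8.09, 12.4 and 2.53 percentage points in the order deep share of all crosslinks, of intronic crosslinks, C, U, introns over 20 kb, genes over 100 kb, within 1 kb, acceptor-like; sign-flip p = 0.125 each) and with replicates 1 and 2 alone (-9.62, -32.0, 10.7, -7.65, -7.68, -4.62, 6.98 and 1.66; exact permutation p = 0.333, the smallest 2 against 2 allows). Without 1 library the differences ran from -14.5 to -11.4, -44.7 to -37.8, 15.6 to 21.1, -15.8 to -11.1, -15.8 to -11.6, -9.37 to -6.76, 10.4 to 14.3 and 2.26 to 2.87. The C, U, intron length, gene length and within 1 kb shares missed the threshold without any 1 IgG library (exact permutation p = 0.0571) and none did without an RBM10 library. The donor-like share passed at 300 nt (-0.313). Hosts called, higher and lower, numbered 1959, 26 and 1933, with 46 higher without TMM; 719, 74 and 645 by DESeq2; 1042, 88 and 954 with at least 10 crosslinks; 8 higher at 1000 nt; 54 higher in replicates 1 and 2; and 595 to 2348, 14 to 39 and 561 to 2309 without 1 library. Bins called, higher and lower, numbered 61, 36 and 25, with 2 lower by DESeq2; 1546, 979 and 567 with at least 10 crosslinks; 17, 12 and 5 with each position counted once; 54 lower in bins of 500 nt; 167, 94 and 73 in replicates 1 and 2; and 41 to 90, 26 to 52 and 7 to 45 without 1 library. The cause was not tested, apart from the numbers of rows that each filter keeps. Of 57 named hosts and bins 1 reversed, the Pkm2 bin at 0.093 by DESeq2; the others kept their direction, and 80 of their values under an alternative missed the threshold. The replicate block left 22 hosts higher and 1621 lower. IgG libraries 3 and 4 limit what can be said of single bins.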
